A study of Mus musculus with 24 samples.

Results

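Intronic CpGs that lie away from promoters were examined in the dentate gyrus of young and aged mice. A row of the methylation table was counted as intronic when its position lay on an autosome, inside a gene of the GENCODE M21 annotation (GRCm38), in no annotated exon, and more than 1000 bp from every transcript start site. By this rule 136371 of the 694379 CpGs of the table were intronic, against 326658 promoter CpGs within 1000 bp of a start site, 46531 exonic CpGs and 163287 intergenic CpGs. DNA of whole dentate gyrus from 24 female C57BL/6JRj mice had been profiled by reduced representation bisulfite sequencing (RRBS), which cuts DNA at CCGG and reads methylation in the CpG-rich part of the genome. The groups were 8 young mice in standard housing (young STD, age 3 months), 8 aged mice in standard housing (aged STD, 17 months) and 8 aged mice (aged ENR, 17 months) that spent their last 3 months in an enriched environment. Enriched mice shared a single enclosure and standard mice lived in ordinary cages, so enclosure and housing cannot be told apart. Whole tissue was used, so a change in the mix of cell types and a change within cells cannot be told apart either.

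In mammals, most DNA methylation lies at CpGs, although neurons also carry it at other cytosines, which were not analysed here. At a CpG both strands carry the same dinucleotide, and a maintenance enzyme copies the mark to the new strand after replication. Promoter CpG islands are mostly free of it, while the bodies of genes, including their introns, are mostly methylated. Introns also hold enhancers, alternative start sites and many transposable elements, which are usually kept methylated.

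Stretches of DNA at the lowest and the highest level are shown first, as examples chosen by their level. Among 1-kb windows with at least 10 intronic CpGs, the 5 with the most CpGs among those under 10% in every mouse are shown by their densest 120 bases, with every CpG in capitals (GRCm38, plus strand).
Rnf220, chr4:117484684-117484803: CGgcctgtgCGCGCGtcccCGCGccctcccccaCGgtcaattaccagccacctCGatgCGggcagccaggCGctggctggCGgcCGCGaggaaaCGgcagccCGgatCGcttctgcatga
Hmx1, chr5:35397441-35397560: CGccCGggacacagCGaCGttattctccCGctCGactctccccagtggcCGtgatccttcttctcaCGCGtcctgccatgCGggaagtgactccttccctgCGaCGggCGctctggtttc
Lhx4, chr1:155737547-155737666: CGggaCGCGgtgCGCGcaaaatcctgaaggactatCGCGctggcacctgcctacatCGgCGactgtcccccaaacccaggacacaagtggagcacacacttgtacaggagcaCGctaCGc
Ebf3, chr7:137309701-137309820: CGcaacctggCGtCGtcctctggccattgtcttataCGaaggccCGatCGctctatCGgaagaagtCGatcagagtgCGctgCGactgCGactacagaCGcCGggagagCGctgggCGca
Lncppara, chr15:85671328-85671447: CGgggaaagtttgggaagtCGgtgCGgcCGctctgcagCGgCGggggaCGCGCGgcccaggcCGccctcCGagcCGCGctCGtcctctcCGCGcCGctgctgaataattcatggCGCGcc
At the other end, the 2 largest of the windows over 90% in every mouse measured also held many CpGs, in soft-masked repeats. The Gpsm2 window was measured in 23 mice. The 4933432K03Rik window was measured in 20 mice and lay outside the main transcript of its gene.
Gpsm2, chr3:108691817-108691936: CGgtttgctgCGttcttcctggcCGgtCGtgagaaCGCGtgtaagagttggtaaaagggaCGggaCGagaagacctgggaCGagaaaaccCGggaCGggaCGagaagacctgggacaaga
4933432K03Rik, chr7:121597732-121597851: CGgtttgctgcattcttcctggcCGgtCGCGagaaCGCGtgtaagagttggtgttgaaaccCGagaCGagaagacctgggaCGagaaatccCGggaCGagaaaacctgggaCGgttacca
The Rnf220 stretch held 16 CpGs in 120 bases and averaged 2.14% in young STD mice, whereas the Gpsm2 stretch held 12 CpGs and averaged 97.0%. The 2 methylated stretches shared much of their sequence, with 50 of their first 60 bases identical.

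The intronic CpGs lay in 12784 genes, 9689 of them protein-coding, and 7964 of the CpGs lay in several overlapping genes. Their median distance to a start site was 9546 bp, and the median number of CpGs within 100 bp on each side, the CpG itself included, was 5, against 16 for promoter, 8 for exonic and 5 for intergenic CpGs. A mouse had a value at 57582 to 120547 intronic CpGs, the medians being 83176 (young STD), 82286 (aged STD) and 90318 (aged ENR). Only 1917 intronic CpGs had a value in all 24 mice and 44143 were covered in 5 or more mice of all groups. Each value is the percent of methylated reads at 1 cytosine of 1 strand in 1 mouse. Of all intronic values, 75.9% were exactly 0 or 100. The number of reads behind a value is unknown beyond the minimum of 10, so no interval was given for single values. The library of aged STD mouse 5 stood apart. Its mean over the 1917 shared CpGs was 55.7%, against 59.1% to 63.4% in the other mice. Its coverage of 42.2% of the intronic CpGs was close to that of aged ENR mouse 1 (43.0%). Comparisons that include it are given without it too where its part was large.

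Intronic CpGs were mostly methylated, but less so than intergenic CpGs. Over the shared CpGs, the intronic mean in young STD mice was 61.8% ± 0.737 (SD, n = 8), against 14.0% ± 0.374 at promoter CpGs, 56.9% ± 1.44 at exonic CpGs and 68.8% ± 0.623 at intergenic CpGs. The intronic mean was higher than the promoter and the exonic mean in 8 of 8 mice and lower than the intergenic mean in 8 of 8 (exact two-sided sign-flip test, p = 0.0078 each, the smallest that 8 mice allow). The mean hides a wide spread. In young STD mice 16.8% of intronic CpGs had a group mean under 10%, 36.9% were over 90% and 46.3% lay between, whereas 81.3% of promoter CpGs were under 10%. The share in between was 40.4% at intergenic and 38% at exonic CpGs. Intronic CpGs also differed most between mice of 1 group: the median SD between young STD mice was 14.9 points, against 10.5 at intergenic, 6.79 at exonic and 0 at promoter CpGs.

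**Figure D1:**
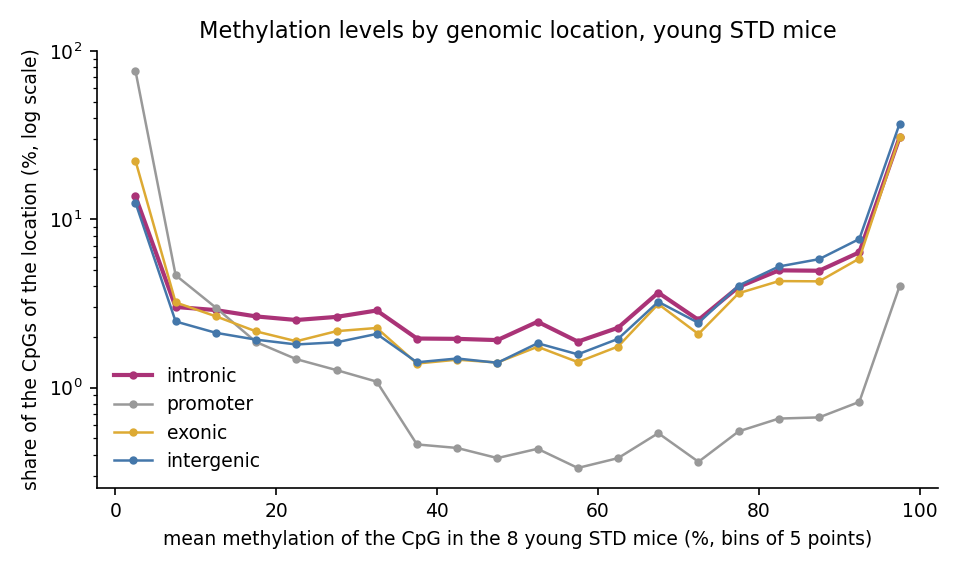
Share of the CpGs of each location (vertical axis, percent, log scale) by the mean methylation of the CpG over the 8 young STD mice (horizontal axis, bins of 5 points). Intronic CpGs have peaks at both ends, with 16.8% of them under 10% and 36.9% over 90%, while promoter CpGs sit at the low end.

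The level rose with the distance from a start site and fell with the local number of CpGs. In young STD mice the mean over every covered CpG was 38.9% ± 2.25 at 1 to 2 kb from a start site, 57.5% ± 2.08 at 2 to 5 kb, 66.5% ± 1.70 at 5 to 20 kb, 68.1% ± 1.8 at 20 to 100 kb and 73.9% ± 1.34 beyond 100 kb (n = 8 each). CpGs at 1 to 2 kb were lower than the other intronic CpGs by 26.4 points in 8 of 8 mice, and those beyond 100 kb were higher by 12.6 points in 8 of 8 (exact sign-flip test, adjusted p = 0.00901 each). By local number, the level was 71.1% ± 1.79 with 1 to 3 CpGs in that span, 61.6% ± 1.88 with 4 to 9, 38.4% ± 1.34 with 10 to 19 and 5.49% ± 0.864 with 20 or more. The 1687 CpGs of the densest class were under 10% in 88.6% of cases.

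Distance and density did not add up evenly. Sparse CpGs, with 1 to 3 in that span, went from 61.4% ± 2.21 at 1 to 2 kb to 76.8% ± 1.49 beyond 100 kb. CpGs with 10 to 19 went from 9.10% ± 0.805 through 25.5% ± 1.98, 53.9% ± 2.25 and 68.8% ± 1.47 to 85.6% ± 1.97 over the same steps, so that beyond 100 kb, where 350 such CpGs were measured, this class was above the sparse one. The densest class stayed at 1.60% ± 0.574, 2.79% ± 1.13 and 3.77% ± 1.77 up to 20 kb and was 25.8% ± 4.16 at 20 to 100 kb. The interplay of the 2 properties is given as values and was not tested.

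**Figure D2:**
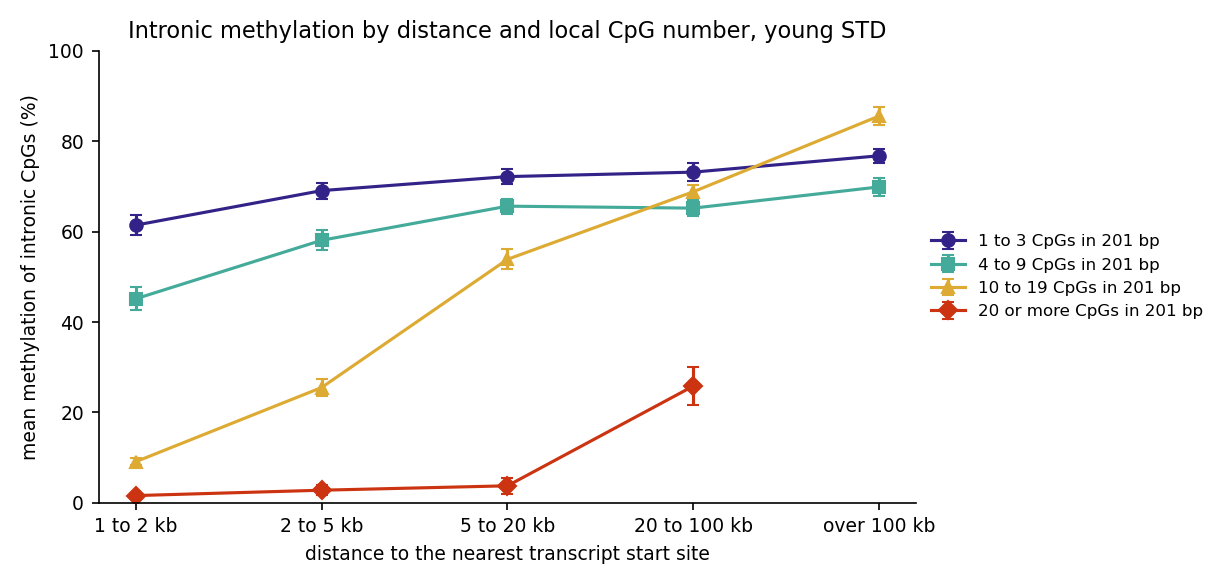
Mean methylation of intronic CpGs in the 8 young STD mice (vertical axis, percent, points with SD) by distance to the nearest transcript start site (horizontal axis) and number of CpGs within 100 bp on each side (colours). The class with 10 to 19 CpGs climbs from 9.10% at 1 to 2 kb to 85.6% beyond 100 kb, while the class with 1 to 3 CpGs starts at 61.4%.

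Position in the gene and repeats went with the level too. CpGs of the first intron of the main transcript were at 50.7% ± 2.28 and those of a second or later intron at 67.3% ± 1.67 (lower and higher than the other intronic CpGs in 8 of 8 mice, exact sign-flip test, adjusted p = 0.00901 each). CpGs in soft-masked repeats, which were 17.7% of the intronic CpGs, were at 84.1% ± 0.681, against 56.7% ± 2.18 outside repeats (8 of 8 mice, adjusted p = 0.00901). Repeats therefore held a narrower and higher range, with 63.2% of their CpGs over 90%. CpGs of genes shorter than 20 kb were at 51.4% ± 2.05 and those of genes over 100 kb at 63.9% ± 1.86.

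Transcription factors whose sites hold a CpG gave a further split. The motifs searched on both strands were the cyclic AMP response element TGACGTCA bound by CREB, the E-box CACGTG, the EGR1 site GCGTGGGCG, the SP1 site GGGGCGGGG, the ETS site CCGGAAGT and the MspI site CCGG that the RRBS enzyme cuts. No CpG lay in more than 1 of the first 4 motifs, and all 756 CpGs in the ETS motif also lay in CCGG. CpGs in the CREB motif were 0.0330% of the intronic CpGs (45 CpGs) and 0.0563% of the promoter CpGs, and averaged 51.7% ± 4.67 in young STD mice. The E-box held 0.552% of intronic and 0.362% of promoter CpGs, at 53.5% ± 3.59. The SP1 motif held 0.132% and 0.436%, at 45.5% ± 2.96, and the EGR1 motif 0.0205% and 0.0664% (28 intronic CpGs), at 25.3% ± 5.60. The ETS motif held 0.554% and 0.317%, at 68.3% ± 2.97, and CCGG held 48.9% and 21.6%, at 64.7% ± 2.18. The NRF1 motif was found at 5 intronic CpGs and the Kaiso motif at 0, which left nothing to compare.

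Compared with intronic CpGs of the same class of local CpG number, the difference was -8.80 points for CREB, -7.49 points for the E-box and -8.96 points for SP1, lower in 8 of 8 young STD mice each (exact sign-flip test, adjusted p = 0.0117). It was -7.81 points for EGR1 (lower in 7 of 8 mice) and 2.38 points for ETS (higher in 7 of 8), with an adjusted p of 0.0156 each. For CCGG it was -1.50 points. Single classes of local number could go the other way. With 1 to 3 CpGs in the span, the 22 CpGs in the SP1 motif averaged 77.3% against 71.2%, and with 10 to 19 the 5 CpGs in the CREB motif averaged 55.6% against 38.3%. These are matches to letters, and whether a factor sat at any of them was not measured.

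Windows of 1 kb were sorted by their level in all mice measured. Of 1188 windows with at least 10 intronic CpGs, 127 (10.7%) were under 10%, 10 (0.842%) over 90% and 0 between 25% and 75% in every mouse measured. The 127 unmethylated windows lay in 121 genes, 81 of them within 2 kb of a start site and 27 more than 5 kb away. Their CpGs had a median of 15 CpGs within 100 bp on each side and 3.49% lay in repeats, whereas 95.7% of the CpGs of the 10 methylated windows lay in repeats. All 10 methylated windows were more than 5 kb from a start site.

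Some genes held several such windows, and were chosen here after their values were seen. Fat1, Pax7, Sall1, Shh, Wnt3 and the gene model Gm20388 each held 2 unmethylated windows. Shh and Wnt3 are secreted signals, Pax7 and Sall1 transcription factors and Fat1 a large cadherin. The window with the most CpGs, 56 in the second intron of Rnf220, a ubiquitin ligase gene, ranged from 0% to 6.84% over 24 mice and averaged 2.50% ± 2.50 in young STD mice, with 1.71% ± 2.03 for aged STD and 0.801% ± 1.55 for aged ENR. In Hmx1, a homeobox gene, 47 CpGs ranged from 0% to 8.04%. Lhx4, a LIM homeobox gene, held 44 CpGs in its first intron that ranged from 0% to 7.69%. Ebf3, a neuronal differentiation factor, held 39 CpGs in intron 4 at 1.17% to 8.81%. In Lncppara, a long non-coding RNA, 36 CpGs at 17712 bp from the nearest start site ranged from 0% to 7.10%. The groups overlapped in each of these windows.

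The number of reads is unknown, so the spread of single values was described with CpGs seen on both strands. Measurement error and real differences between strands cannot be told apart in it. At 8025 CpGs both strands were intronic rows. In the same mouse, the 2 strands of such a CpG differed by 14.4 to 20.3 points on average (median over mice 18.2), and by more than 25 points in 21.3% to 31.7% of cases. The same strand of the same CpG differed between 2 young STD mice by 18.7 points on average, between 2 aged STD mice by 18.2 points and between 2 aged ENR mice by 17.0 points (28 pairs of mice in each group). So the values of a single CpG differed between strands of a mouse by about as much as between mice. Consecutive CpGs of the same strand within 20 bp, which can share reads, differed by 10.9 to 12.9 points in the same mouse. The coding strand minus the other strand was 0.234 points ± 0.553 (SD, n = 8 young STD mice, exact sign-flip p = 0.273) over 7676 CpGs.

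**Figure D3:**
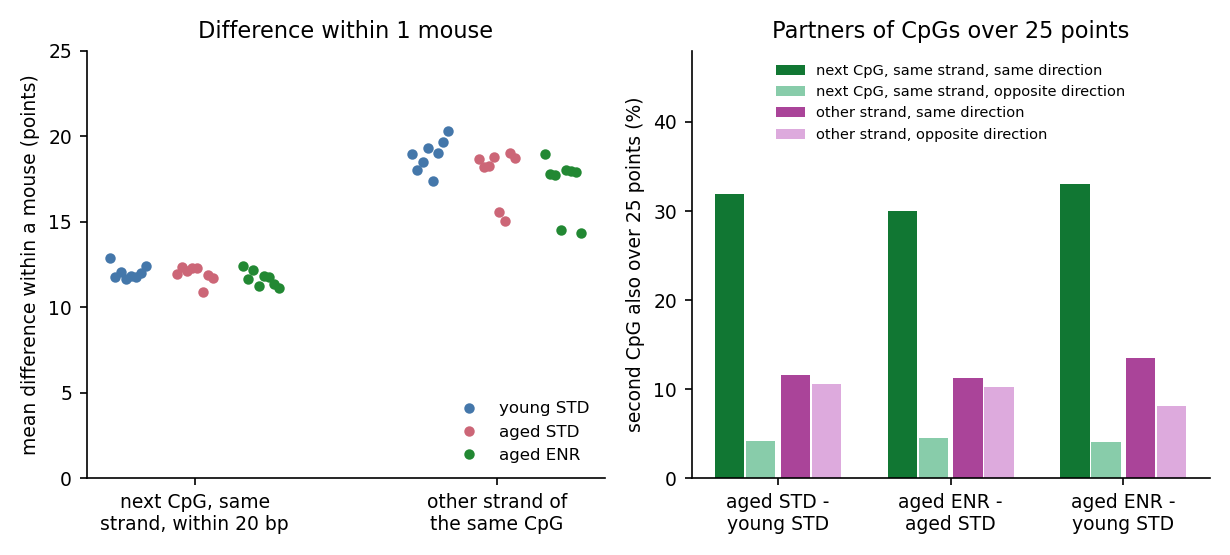
Left, mean difference in points within each mouse (1 point per mouse, coloured by group) between neighbouring CpGs of the same strand and between the 2 strands of a CpG. Right, for CpGs whose group means differ by over 25 points, the share (percent) of partner CpGs that also differ by over 25 points in the same or the opposite direction. Strands of the same CpG differ by 14.4 to 20.3 points, and on the other strand the same direction is seen at 11.3% to 13.5% and the opposite direction at 8.13% to 10.6%.

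The first question between groups was whether the overall level of intronic CpGs moved with age or with enrichment. Over the 1917 shared CpGs, young STD mice ranged from 60.8% to 62.9% (median 61.5%), aged STD mice from 55.7% to 63.4% (median 60.9%) and aged ENR mice from 59.1% to 61.7% (median 60.4%). The group means were 61.8% ± 0.737 (young STD), 60.7% ± 2.28 (aged STD) and 60.3% ± 0.849 (aged ENR). Aged ENR mice were lower than young STD mice by 1.43 points (exact two-sided permutation test, p = 0.00249, adjusted p = 0.00746), although the groups overlapped. Aged STD minus young STD was -1.10 points (p = 0.218, adjusted p = 0.328, exact permutation test) and aged ENR minus aged STD was -0.324 points (p = 0.748). Both comparisons share the aged STD mice. Without aged STD mouse 5 they were -0.389 points (exact permutation p = 0.436) and -1.04 points (exact permutation p = 0.0628). Without aged STD mouse 3, aged ENR minus aged STD turned to 0.0667 points. With the median over CpGs in place of the mean, aged ENR minus young STD was -0.772 points and no longer passed (exact permutation p = 0.348), and aged ENR minus aged STD turned to 0.49 points.

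The 1.43 points at intronic CpGs were set against the other locations in the same mice. Promoter and intergenic CpGs were lower in aged ENR than in young STD mice too. Over their shared CpGs the difference was -0.521 points at promoter (exact permutation test, adjusted p = 0.0247) and -0.752 points at intergenic CpGs (adjusted p = 0.0476). At exonic CpGs it was -0.545 points (adjusted p = 0.954). The within-mouse difference intronic minus promoter was 0.905 points lower in aged ENR than in young STD mice (exact permutation test, p = 0.00948, adjusted p = 0.0573), that against intergenic CpGs 0.674 points lower (p = 0.0127, adjusted p = 0.0573) and that against exonic CpGs 0.881 points lower (p = 0.118, adjusted p = 0.354). None passed the adjustment over 9 comparisons. With a deviation score over every covered CpG in place of the shared CpGs, the 3 differences were -1.28, -0.816 and -0.497 points, with adjusted p-values of 0.0035, 0.0014 and 0.0329. The score is each value minus the mean of the 3 group means of its CpG, averaged per mouse. By this score aged ENR minus young STD was -0.346 points at promoter, -1.13 at exonic and -0.810 at intergenic CpGs. All 3 passed (exact permutation test, adjusted p = 0.000932, 0.00233 and 0.0326).

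Coverage was also compared between CpGs of high and low level. The share of CpGs covered among those over 90% in the other mice, divided by the share among those under 10%, was 0.925 to 1.13 in young STD mice (median 0.994), 0.5 to 1.2 in aged STD mice (median 0.993) and 0.843 to 0.985 in aged ENR mice (median 0.940). The value 0.5 belonged to aged STD mouse 5, and the other aged STD mice ranged from 0.932 to 1.2. The mean ratio was lower by 0.0854 in aged ENR than in young STD mice (exact two-sided permutation test, adjusted p = 0.0224), although the groups overlapped. It was -0.0583 for aged STD minus young STD (exact permutation test, adjusted p = 0.760) and -0.0271 for aged ENR minus aged STD (adjusted p = 0.760). Without aged STD mouse 5 these were 0.00647 (exact permutation test, adjusted p = 0.870) and -0.0919 (adjusted p = 0.0191). That mouse still entered the levels by which the CpGs were placed. The part of coverage in the lower methylation of aged ENR mice was not tested.

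**Figure D4:**
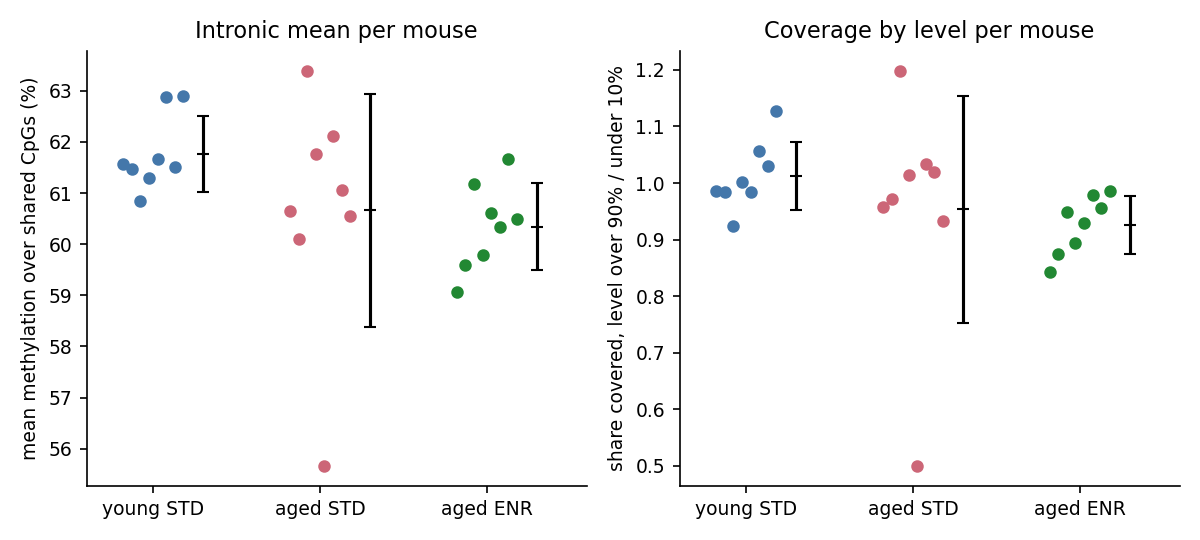
Left, mean methylation (percent) over the 1917 intronic CpGs shared by all mice, 1 point per mouse, with the group mean and SD in black. Right, share of intronic CpGs covered among those over 90% divided by the share among those under 10% in the other mice. Aged STD mouse 5 lies lowest in both panels, at 55.7% and 0.5.

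The difference between aged ENR and young STD mice was also measured by the level of the CpGs. Each CpG was placed by its level in the other 23 mice, and each mouse was scored by its mean deviation from that level. At CpGs under 10%, aged ENR minus young STD was -1.33 points (exact permutation test, adjusted p = 0.00311), at 10 to 25% it was -4.29 points (adjusted p = 0.00233) and at 25 to 75% -4.12 points (adjusted p = 0.00311). At 75 to 90% it was -0.617 points (adjusted p = 0.350) and over 90% it was 0.0654 points (adjusted p = 0.994). Differences between the classes of level were not tested. At 10 to 25%, the scores averaged -1.35 ± 0.985 in aged ENR, 0.281 ± 2.70 in aged STD and 2.94 ± 2.71 points in young STD mice. The aged STD mice ranged from -4.53 to 4.39 and overlapped both other groups, and their mean was 0.969 without mouse 5. Aging did not pass in any of the 5 classes of level, with adjusted p-values of 0.264 or more. Aged ENR minus aged STD did not pass with all mice (adjusted p of 0.265 or more). Without aged STD mouse 5 it was -0.752 points under 10%, -2.32 points at 10 to 25%, -2.94 points at 25 to 75% (adjusted p = 0.0206 each, exact permutation test) and -1.16 points at 75 to 90% (adjusted p = 0.0283). In the values without it, that mouse still entered the levels of the other mice and was left out only of the comparison. This placing by level, and the values without that mouse, were added after the data were seen.

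**Figure D5:**
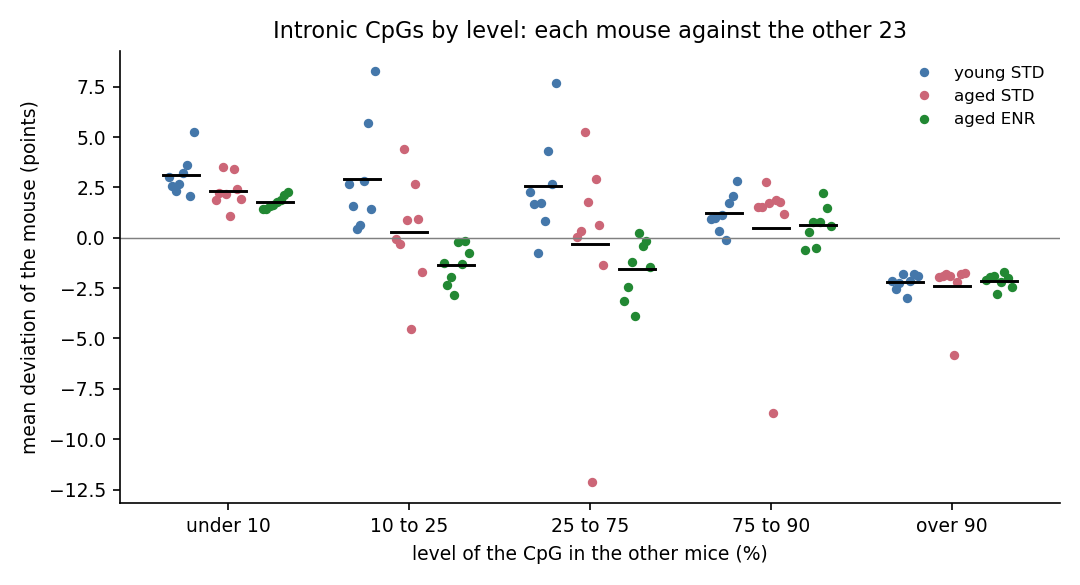
Mean deviation of each mouse from the level of its intronic CpGs in the other 23 mice (vertical axis, points; 1 dot per mouse, black bars are group means) by that level (horizontal axis, percent). At 10 to 25% the aged ENR mice average -1.35, the aged STD mice 0.281 and the young STD mice 2.94, while over 90% aged ENR minus young STD is 0.0654.

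The lower level in aged ENR than in young STD mice was broad across classes of intronic CpGs. It was -1.38 points at 1 to 2 kb from a start site and -1.72, -1.71, -1.59 and -1.49 points in the 4 classes farther away (exact permutation test on the deviation score, adjusted p of 0.00186 to 0.00892). Sparse CpGs with 1 to 3 in their span differed by -1.99 points (adjusted p = 0.00233), those with 10 to 19 by -0.498 points (adjusted p = 0.0431) and those with 20 or more by 0.206 points (adjusted p = 0.250). Repeats differed by -0.730 points and CpGs outside repeats by -1.83 points. The ETS motif differed by -2.92 points (adjusted p = 0.00466), the E-box by -0.339 points (adjusted p = 0.712) and the CREB motif by -2.66 points (adjusted p = 0.222). Differences between these classes were not tested. For aging and for aged ENR minus aged STD, 0 of the 30 classes, which share CpGs, passed with all mice. Aged STD mouse 5 was then left out of the comparison, though it stayed in the group means behind the score. Aging still passed in 0, while aged ENR minus aged STD passed in 21 (exact permutation test). In repeats the latter went from -0.151 to -0.700 points (adjusted p = 0.962 and 0.0140) and at 20 to 100 kb from -0.321 to -1.19 points (adjusted p = 0.913 and 0.0140), while aging in repeats went from -0.579 to -0.0304 points.

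Many single intronic CpGs had group means that lay far apart, but few held up against the spread between mice. A difference of group means over 25 points was found at 20598 intronic CpGs (15.1%) between aged STD and young STD mice, against 9.16% of the whole table and 3.99% of promoter CpGs. Of these, 11469 were lower and 9129 higher in aged STD mice (5.01% and 4.15% of the table). Between aged ENR and aged STD mice 19265 intronic CpGs (14.1%) passed it, against 8.33% of the table, with 10559 lower and 8706 higher in aged ENR (4.51% and 3.82% of the table). Between aged ENR and young STD mice 19776 (14.5%) passed it, against 8.42% of the table, with 12018 lower and 7758 higher in aged ENR (4.99% and 3.43% of the table). These are counts of means with no test. Without aged STD mouse 5 the shares were 15.2%, 14.4% and 14.3% of intronic CpGs, against 9.46%, 8.77% and 8.45% of the table. Over the CpGs measured in all 24 mice the share was 1.62%, 1.62% and 2.03%.

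Such differences were set beside the other strand of the same CpG. Of the 1032 plus-strand CpGs with a difference over 25 points between aged STD and young STD mice, the minus strand of the same CpG differed by over 25 points in the same direction at 11.5% and in the opposite direction at 10.6%. For aged ENR against aged STD these were 11.3% and 10.3% of 876, and for aged ENR against young STD 13.5% and 8.13% of 972. In either direction this came to 22.1%, 21.6% and 21.6%, beside 12.4%, 11.1% and 11.9% of the minus strands of all 8025 CpGs. Among consecutive CpGs of the same strand within 20 bp, the next CpG followed in the same direction at 32.0%, 30.0% and 33.1% and in the opposite direction at 4.22%, 4.54% and 4.07%, beside 12.5%, 11.4% and 11.8% in either direction over all 35103 such pairs.

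With limma (adjusted p under 0.05 over the whole table and a difference over 25 points), 7 intronic CpGs were called between aged STD and young STD mice, 3 higher and 4 lower, against 33 of the whole table (0.00475%, with 0.00245% higher and 0.0023% lower). Between aged ENR and aged STD mice 14 were called, 2 higher and 12 lower in aged ENR, against 30 of the table (0.00432%, with 0.000864% higher and 0.00346% lower). Between aged ENR and young STD mice 13 were called, 2 higher and 11 lower in aged ENR, against 35 of the table (0.00504%, with 0.00173% higher and 0.00331% lower). An unadjusted p under 0.05 was reached by 3.44%, 2.85% and 3.51% of intronic CpGs and by 2.23%, 1.90% and 2.18% of the table. Without the CpGs lacking spread it was reached by 5155, 4268 and 5239 of 117805 intronic CpGs. In the table it was then reached by 16770, 14105 and 16237 of 472013. Of the called CpGs, 6 of 7, 11 of 14 and 11 of 13 had only 3 mice in a group. Fitted over the CpGs covered in 5 or more mice of all groups only, 0 of 44143 intronic CpGs and 0 of 223328 of the table were called by limma in any of the 3 comparisons. An unadjusted p under 0.05 was reached there by 1669, 1343 and 1734 intronic CpGs (3.78%, 3.04% and 3.93%), against 2.59%, 2.15% and 2.54% of the table. Leaving out aged STD mouse 5, limma called 9, 18 and 11 intronic CpGs, against 31, 37 and 27 of the table (0.00477%, 0.00569% and 0.00416%). Leaving out each mouse of the 2 groups compared in turn, the intronic calls ranged from 3 to 17, 7 to 18 and 9 to 20. With age the table had 17 calls in the fit with 3 intronic ones and 51 in the fit with 17. Since the groups of every called CpG did not overlap, an exact permutation test of each alone gave the smallest p that its number of mice allows, up to 0.1 for 3 against 3, and adds no support.

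A single called CpG had 5 or more mice in all 3 groups, and it lay in intron 8 of Chrna1 (chr2, position 73566670), which encodes a subunit of the nicotinic acetylcholine receptor. It is shown with 20 bases on each side, the measured CpG in capitals.
Chrna1, chr2:73566650-73566691, plus strand: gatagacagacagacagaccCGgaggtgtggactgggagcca
The values were 24.7%, 3.7%, 24%, 0% and 0% in 5 young STD mice, 100%, 90%, 100%, 100% and 60.7% in 5 aged STD mice, and 0%, 20.5%, 0%, 44.3%, 0%, 0% and 9.62% in 7 aged ENR mice. All aged STD values lay above all others. The limma difference was 79.7 points ± 9.88 (SE) for aged STD minus young STD (adjusted p = 0.0314) and -79.5 points ± 9.14 for aged ENR minus aged STD (adjusted p = 0.0157). Its single intronic neighbour within 50 bp differed by -13.2 and 1.77 points in the same comparisons, so the neighbour did not share the pattern. The CpG lies in a soft-masked repeat, and its calls were lost in the fit over CpGs with 5 or more mice per group.

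The other called CpGs rested on fewer mice, and all had group values that did not overlap. In Onecut1, a transcription factor gene, 1 CpG of the first intron (chr9, position 74868741) was at 32.3%, 30.4% and 14.6% in 3 aged ENR mice, at 0% in 6 aged STD mice and at 0% to 2.50% in 8 young STD mice. Of its 8 neighbours within 50 bp, 6 were higher in aged ENR than in aged STD mice, by 6.68 points on average over the 8.
Onecut1, chr9:74868721-74868762, plus strand: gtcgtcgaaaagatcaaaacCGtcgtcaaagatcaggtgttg
CpGs of Parvb (12040 bp from a start site), Gm20388 and Chrna1 were called in both comparisons that share the aged STD mice, with opposite signs. In Parvb, which encodes a focal adhesion protein, 3 aged STD mice were at 100% and 3 young STD mice at 0%. Mbp, the gene of myelin basic protein, held 1 called CpG at 0% to 14.8% in 5 aged ENR mice, against 72.5% to 100% in 3 aged STD mice. On the other strand of the same CpG the group means were 48.1% (young STD), 16.7% (aged STD) and 30% (aged ENR). In Slc19a2, a thiamine transporter gene, the called CpG differed by -77.3 points and its other strand by -5.64 points. These were the only 2 of the 14 CpGs with a second strand among the intronic rows. Over the 13 calls of aged ENR against aged STD with neighbours within 50 bp, the neighbours' mean difference had a median size of 22.8 points beside 88.5 points at the called CpGs, with the same sign at 9. Over the 4 such calls of aging it was 32.4 beside 91.1 points, with the same sign at 3. Among the 13 calls of aged ENR against aged STD, some neighbours moved as far as the called CpG. In Hivep3 the called CpG differed by -88.5 points and its 3 neighbours by -88.7 points on average. In Mical3 the called CpG differed by -88.4 points and its 1 neighbour by -89.9 points.

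Averaging all intronic CpGs of a gene gave no call with all mice. Units of at least 5 CpGs were formed for 7070 genes among 27732 units of gene and location. None of the 7070 intronic units passed an adjusted p of 0.05 in limma in any comparison, against 2 (0.00721%), 3 (0.0108%) and 5 (0.018%) of all units for aging, aged ENR against aged STD, and aged ENR against young STD. An unadjusted p under 0.05 was reached by 506, 386 and 539 intronic units (7.16%, 5.46% and 7.62%), against 5.74%, 4.82% and 5.55% of all units. The median difference over the 7070 genes was -0.749 points for aging, with 3931 lower, and -0.506 points for aged ENR minus aged STD, with 3851 lower. Without aged STD mouse 5 these medians were -0.178 points, with 3636 of 7038 genes lower, and -0.94 points, with 4105 lower. Rtn4ip1 then passed with age (-42.6 points, limma adjusted p = 0.0492), and 0 passed for aged ENR minus aged STD.

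The smallest p-values of the gene units are given as values that did not pass with all mice. For aging they belonged to the long non-coding gene Gm35256 (9.71 points ± 1.97 SE, limma adjusted p = 0.278), to the ephrin receptor gene Epha7 (-25.8 points ± 5.45, adjusted p = 0.366) and to the phosphatase gene Inpp5f (-10.3 points ± 2.11, adjusted p = 0.366). Gm35256 levels ranged from 74.4% to 89.3% in young STD mice, from 88.1% to 99.5% in aged STD mice and from 87.3% to 96.0% in aged ENR mice, so that the aged groups overlapped young STD mice only at the edge. For aged ENR minus aged STD they belonged to Inpp5f (10.7 points ± 2.24, adjusted p = 0.498), to Sec24b, a coat protein gene of vesicle transport (-24.6 points ± 5.38, adjusted p = 0.554), and to Nmrk1, a kinase gene of NAD synthesis (18.3 points ± 3.85, adjusted p = 0.554). Inpp5f rested on 5 CpGs in 5 aged STD mice, which ranged from 80.6% to 100% while young STD mice ranged from 97.8% to 100%. Single mice decided these calls. Inpp5f passed in both comparisons without aged STD mouse 2 (limma adjusted p = 0.00344 and 0.00500). Nmrk1 did so without aged STD mouse 6 (limma adjusted p = 0.0437 and 0.0332).

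Intronic CpGs of Tiam1, Tshz2 and Cux2 with published coordinates were looked up. For Tiam1 and Tshz2 the table holds the minus-strand cytosine of that CpG, 1 base after the published position, so the strand read there may not be the published one. Each is shown with 20 bases on each side on the strand measured, the measured CpG in capitals.
Tiam1, chr16:89896478-89896519, minus strand: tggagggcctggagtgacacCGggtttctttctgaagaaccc
Tshz2, chr2:169826468-169826509, minus strand: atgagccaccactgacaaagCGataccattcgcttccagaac
Cux2, chr5:121938815-121938856, minus strand: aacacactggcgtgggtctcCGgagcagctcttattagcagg
Tiam1 encodes a Rac activator that shapes dendritic spines, and its CpG lay 22486 bp from a start site. It was at 56.0%, 100%, 100%, 100% and 100% in 5 young STD mice, at 100%, 100%, 50%, 100% and 0% in 5 aged STD mice and at 100% in 3 aged ENR mice. The groups overlapped, and the difference was -21.2 points for aging (exact permutation p = 0.444) and 30.0 points for aged ENR minus aged STD (exact permutation p = 0.464). The CpG of Tshz2, a zinc finger gene, lay 58404 bp from a start site. It was at 0%, 0%, 42.9% and 0% in young STD, at 100%, 39.6%, 21% and 0% in aged STD and at 0% in 3 aged ENR mice (29.4 and -40.1 points, exact permutation p = 0.371 and 0.257). The CpG of Cux2, a homeobox gene of upper-layer neurons, averaged 59.7% ± 48.3 (n = 5) in young STD, 14.0% ± 20.8 (n = 5) in aged STD and 73.7% ± 36.0 (n = 6) in aged ENR mice. Its difference was -45.7 points for aging (exact permutation p = 0.119) and 59.6 points for aged ENR minus aged STD (exact permutation p = 0.0152, not adjusted). None passed in limma over the whole table, with an adjusted p of 1 for all 3. The table holds no read counts, so the study's own read-level test was not run.

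Over whole genes, the introns of Tiam1 had the largest difference with age of these 3 genes. Tiam1 (chr16, 143 intronic CpGs) averaged 41.2% to 51.4% in young STD mice (median 46.8%), 30.5% to 45.1% in aged STD mice (median 37.8%) and 32.1% to 42.5% in aged ENR mice (median 36.1%). The limma difference was -8.52 points ± 2.12 for aging (adjusted p = 0.583) and -0.619 points ± 2.12 for aged ENR minus aged STD (adjusted p = 0.988), so neither passed over all units. Without aged STD mouse 5 the 2 differences were -7.90 and -1.24 points. Of its CpGs 33 (23.1%) had group means over 25 points apart with age, 29 of them lower (87.9%), beside 15.1% of all intronic CpGs, 55.7% of them lower, and 9.16% of the table, 54.7% of them lower. Tshz2 (206 intronic CpGs, 135 of them also in another gene) differed by 0.835 and -1.14 points and Cux2 (139 CpGs) by 1.95 and 1.03 points, with limma adjusted p-values of 0.932 or more.

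The 10 protein-coding genes with the most intronic CpGs held between 197 and 1599 of them. Gm20388, a gene model of 4435 kb that spans many other genes, held 1599, of which 815 also lay in another gene, and Fgfr2, a growth factor receptor gene, held 513, of which 279 did. Levels in young STD mice ran from 23.2% in Gse1 to 70.6% in Grip1, a scaffold protein gene of glutamatergic synapses. In Gse1 54.1% of the CpGs were under 10%, and all 283 of them also lay in another gene. The SD between young STD mice was 1.79 to 3.43 points in these 10 genes. Aging differences ran from -4.22 points in Cdh13, a cadherin gene (SE 1.49, limma adjusted p = 0.846), to 3.17 points in Grip1. None passed. They ran from -3.17 to 3.77 points in the same genes without aged STD mouse 5.

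Marker genes of the cell types of the tissue, and imprinted genes, were read as lists. In young STD mice the intronic CpGs of granule neuron markers averaged 45.3%, those of astrocyte markers 38%, of oligodendrocyte markers 47.2%, of microglia markers 57.1%, of endothelial markers 66.3% and of imprinted genes 62.8%. Of 7 granule neuron genes tested, 6 were lower with age, with a median of -4.76 points and 0 passing, beside 3931 lower of all 7070 genes and a median of -0.749 points. The list's median without aged STD mouse 5 was -3.40 points, with 6 lower, beside -0.178 points over all genes. The mean deviation of this list ranged from -0.690 to 6.79 points in young STD, from -10.3 to 3.95 in aged STD and from -4.21 to 1.31 in aged ENR mice. Prox1, the defining transcription factor of granule neurons, was at 14.5% to 59.9% in young STD mice and at 15.5% to 32.9% in aged STD mice. Its difference with age, -4.76 points ± 5.15, is itself the median of the list. Pdzd2 differed by -9.23 points ± 3.44 with age (limma adjusted p = 0.860), Sema5a by -3.32 points ± 2.72 and Maml2, the 1 gene of the list that was not lower, by 0.436 points ± 4.25. Of the imprinted genes with at least 20 CpGs, Trappc9 differed by -4.84 points ± 2.26 (limma adjusted p = 0.864), Gnas by 0.403 points ± 4.65 and Kcnq1 by -1.51 points ± 3.45, which turned to 0.605 points without aged STD mouse 5. That mouse also moved Maml2, to 3.00 points, and Gnas, to 2.6 points, without it. Rbfox3, the gene of the neuronal marker NeuN, differed by -2.06 points ± 2.13 with age (limma adjusted p = 0.905), and by -0.801 points without aged STD mouse 5. With age Slc1a3 (astrocyte) differed by 6.36 points ± 4.06, Cx3cr1 (microglia) by -2.81 ± 1.72. The endothelial genes Pecam1 and Flt1 differed by -9.31 ± 4.08 and -5.41 ± 3.84. For aged ENR minus aged STD these 4 genes differed by -6.93, 0.147, 1.62 and 7.80 points. None passed in limma (adjusted p of 0.860 or more). Medians with age were -7.36 points over 4 endothelial genes, -1.28 over 5 astrocyte genes, 0.770 over 4 microglia genes, -8.59 for the single oligodendrocyte gene tested, Mbp, and -1.78 over 9 imprinted genes, with 0 passing in each list. The astrocyte median without aged STD mouse 5 was -0.179 points and the imprinted median turned to 0.605 points. For aged ENR minus aged STD the medians were 0.219 points for granule neuron, 5.75 for endothelial, 2.69 for astrocyte, -2.91 for microglia, 2.86 for Mbp and -0.313 for imprinted genes, again with 0 passing. Without that mouse the granule neuron median turned to -1.44 points, beside -0.94 points over all genes, and the imprinted median was -1.12 points. Methylation does not give the amount of each cell type, and the part of cell composition in any difference was not tested.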

How the data were processed

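The authors deposited 1 table of methylation in percent per CpG and mouse, for 24 mice. They trimmed RRBS reads, cut a further 2 bp from reads with an adapter, mapped them to mm10 and kept CpGs with at least 10 reads, coverage up to the 99.9th percentile and a value in at least 3 mice per group. Per the labels' processing notes the tools were Trim Galore 0.4.0, Cutadapt 1.8.1, Bismark 0.16.1 and methylKit 1.5.2. The paper's methods name other versions of Trim Galore and Bismark, which was not resolved. Each strand has its own row, and no mice were pooled. Read depth is unknown. Trimmed end-repair bases and PCR copies can move single values.

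From the percentages, CpGs were annotated with GENCODE M21 and the GRCm38 genome. Per-mouse values were compared by exact two-sided permutation (12870 relabelings of 8 against 8) or sign-flip tests with Benjamini-Hochberg adjustment. CpGs and gene units were fitted by limma 3.58.1 (R 4.3.3) as group means over the whole table. Gene units average the deviations of at least 5 CpGs, at least 3 of them in a mouse, so a level can pass 100%. The scripts were tested on simulated data. Genes were named by rule: the study's 3 CpGs, the 10 hosts with most CpGs, the smallest p-values, the densest windows, and list members with at least 20 CpGs. CpGs called in fewer mice, genes with several unmethylated windows and the methylated windows were chosen after their values were seen. Members and lists were chosen with earlier results of these data known. Alternatives covered the CpGs entering a mean, the minimum of mice, the scale, the size threshold, the pairing by number and each mouse left out.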

Additional observations from a re-analysis of the deposited data

Results flagged for a closer look

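In 16 of 112 groups of 4 to 8 mice examined, 1 mouse lay far from the others by Dixon's test, which sets apart about 1 group in 20 by chance. Aged STD mouse 5 was lowest of its group in the mean over shared intronic CpGs (55.7%, others 60.1% to 63.4%), in the mean over every covered intronic CpG (44.4%, others 59.4% to 65.0%) and in the ratio of coverage between CpGs over 90% and under 10% (0.50003, others 0.932 to 1.2). At the single CpGs, 1 young STD mouse was at 56.0% in Tiam1 and 1 at 42.9% in Tshz2.

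In the introns of named genes, 1 mouse stood apart at 40.8% in Gm20388 (aged STD), 56.2% in Wwox (aged STD), 62.9% in Wwox (aged ENR), 65.1% in Camta1 (aged STD), 78.8% in Grip1 (young STD) and 80.9% in Grip1 (aged ENR). The same held at 74.4% in Gm35256 (young STD), 97.8% in Inpp5f (young STD), 99.8% in Inpp5f (aged ENR), 86.9% in Nmrk1 (young STD) and 30.6% in Cx3cr1 (aged ENR).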

How the results depend on the processing

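Depth limits every value of a single CpG, since read numbers are unknown and few mice share a CpG. Of 66 alternative values other than those without a mouse, 42 kept their direction and call, or their size within 1.5 times. With the median over CpGs, aged ENR minus aged STD was 0.49 points and aged ENR minus young STD -0.772 points (exact permutation p = 0.348). The deviation score moved intronic minus promoter, exonic and intergenic for aged ENR against young STD to -1.28, -0.497 and -0.816 points, and intronic minus intergenic with age to -0.481 points, all past the threshold. With at least 5 mice per group, the share over 25 points was 8.52%, 7.999% and 8.61% of intronic CpGs, against 5.15%, 4.72% and 4.82% of the table. These values are for aging, aged ENR against aged STD and aged ENR against young STD, and limma called 0, 0 and 0. In all 24 mice the share was 1.62%, 1.62% and 2.03%. As a separate alternative, a threshold of 10 points in place of 25 gave 42.9%, 41.8% and 42.4%. Without CpGs lacking spread, limma called 11 with age and 22 for aged ENR against aged STD, of 43 and 46 in the table. Mice of the same number were not alike (mean correlation -0.0119 over 24 pairs, range -0.084 to 0.0454), so the number is only a label. With it as a replicate block limma called 147, 147 and 120 intronic CpGs, of 503, 443 and 415 in the table, with 81 higher and 66 lower for aged ENR against aged STD (2 and 12 without the block), and aged ENR minus young STD stayed at -1.43 points with an adjusted p of 0.0938 (exact sign-flip test). The cause of these shifts was not tested.

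Without single mice of the 2 groups compared, aging ranged from -1.49 to -0.389 points, aged ENR minus aged STD from -1.04 to 0.0667 and aged ENR minus young STD from -1.62 to -1.24, past the threshold each time. Without aged STD mouse 3, aged ENR minus aged STD was 0.0667 points. Aged ENR minus aged STD ranged from -0.563 to 0.322 for intronic minus promoter and from -0.728 to 0.0471 for intronic minus exonic. For aged ENR against young STD these ranges were -1.08 to -0.777 (promoter) and -0.77 to -0.432 (intergenic), both past the threshold without aged ENR mouse 3 or 7. Intronic calls by limma ranged from 3 to 17, from 7 to 18 and from 9 to 20. With age they were 3 without young STD mouse 1, 17 without mouse 4, 13 without mouse 5, 11 without mouse 6, 12 without mouse 8 and 4 without aged STD mouse 3. The same fits called 17, 51, 37, 41, 33 and 25 CpGs of the table. For aged ENR against aged STD the intronic calls were 7 without aged STD mouse 2, of 24 in the table. Against young STD they were 20 without young STD mouse 4, of 47 in the table. Leaving out a mouse of the third group also moved the intronic calls. They were 4 with age without aged ENR mouse 7, of 24 in the table. For aged ENR against young STD they were 7 without aged STD mouse 2 or 6, of 17 and 19 in the table. Gene units called ranged from 0 to 1 in each comparison. With age the 1 was Inpp5f without aged STD mouse 2, Rtn4ip1 without mouse 5 and Nmrk1 without mouse 6. For aged ENR minus aged STD it was Inpp5f without aged STD mouse 2 and Nmrk1 without mouse 6. For aged ENR minus young STD it was Gm3142 without young STD mouse 2 or aged STD mouse 6 or 8.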

Other observations

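Within introns, CpGs within 100 bp of an exon edge were at 65.9% ± 1.68 in young STD mice (n = 8), higher than the other intronic CpGs by 4.44 points in 8 of 8 mice (exact sign-flip test, adjusted p = 0.00901). CpGs of the last intron were at 66.4% ± 1.70, higher by 5 points in 8 of 8. CpGs hosted by genes that are not protein-coding were at 65.1% ± 1.35, higher by 3.91 points in 8 of 8. CpGs on the strand of their host gene were at 61.4% ± 1.92 and lower than those on the opposite strand by 0.646 points (lower in 7 of 8 mice, adjusted p = 0.0167), whereas over CpGs measured on both strands the signed mean of coding minus other strand was 0.234 points (exact sign-flip p = 0.273), in the opposite direction.

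Unmethylated intronic windows more than 5 kb from a start site included Tns3 (34 CpGs, 0% to 6.83% over the mice), 2 neighbouring windows in the second intron of Wnt3 (29 CpGs, 0% to 7.69%, and 13 CpGs, 0% to 4.17%), Lhx5 (24 CpGs, 0% to 8.09%), Rere (21 CpGs, 0% to 5.98%) and Cradd (10 CpGs, 0% to 3.12% in the 11 mice measured, 49870 bp from a start site). These genes were chosen after their values were seen.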
